A study of Mus musculus with 109 samples.

Results

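The comparison asks what distinguishes retinas of WT mice given TNF from retinas given PBS 35 days after injection into the vitreous, and it includes neurons as well as glia. Of 109 retinas in the series, 15 carried the labels WT, batch 1 and day 35, and all of them were used: 9 had received TNF and 6 had received PBS, the vehicle. WT mice were C57BL/6J, none carried a further allele, and no eye in these groups received IL1A. Age at injection was 2 to 4 months by the study's abstract, while its methods give 2 to 6 months for all mice. The 15 retinas came from 9 mice, of which 6 gave a TNF eye and a PBS eye, while mice 59731, 59737 and 59892 gave a TNF eye only. The 4 female mice have numbers from 59892 to 59896 and the 5 male mice from 59730 to 59737, so sex and the series of mice cannot be told apart. No untouched retina was part of the comparison.

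RNA was measured as read pairs counted per gene in each whole retina. One count of 10 corresponds to between 0.235 and 0.301 CPM, a count scaled to library size, depending on the retina. The mean total count was different by −1822538 in TNF retinas, which a two-sided exact permutation test over 5005 arrangements did not separate from the spread between retinas (p = 0.125). That test does not use the pairing of eyes. In the 6 mice with both eyes the TNF eye had the lower total in 5, by a mean of −1995089, and a two-sided exact sign-flip test over 64 arrangements, added after seeing the data, gave p = 0.0938. The labels were checked against the counts. The rod transducin gene Gnat1 was between 8856 and 11539 CPM in every library, Xist was at least 2183 CPM in retinas of females and at most 0.942 CPM in those of males, and the Y-linked Ddx3y was 0 CPM in all 7 retinas of females and at least 86.3 CPM in males. A text on extraction that is shared by all samples names day 2, whereas the time label of these retinas is 35, and the time label was followed. Levels in CPM below are scaled with TMM factors, and log2 fold changes are TNF minus PBS.

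TNF is a cytokine of microglia and other myeloid cells that signals through the receptors encoded by Tnfrsf1a and Tnfrsf1b to NF-κB and to cell death pathways. Müller glia, the radial glia that span the retina, and the astrocytes of its inner surface answer injury with a program called gliosis, in which GFAP, endothelin 2, CD44 and cytokine receptors of the gp130 family are known markers. Retinal ganglion cells (RGCs) send their axons through the optic nerve, and loss of these cells lowers the amount of RGC transcripts in whole retina. In a whole retina, fewer cells of a type and less RNA per cell cannot be told apart, which applies to each cell type marker below.

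No single gene passed the test at day 35 with mouse as a random block, while a fit with mouse as a fixed factor, given below, called 2. In 2 lists of gliosis genes all members tested had a log2 fold change above 0, among them Edn2, Gfap and Cd44, but only 4 of 10 and 6 of 11 reached an unadjusted p under 0.05. Marker genes of RGCs and of the other retinal neurons were close to their level in PBS retinas. Several of the largest log2 fold changes that the gene rule named were below 0, in keratin and mucin genes, and the 12 genes of the pigment epithelium list all lay below 0. No list was tested as a group. Limma called 0 of 17821 genes (0%) at a Benjamini-Hochberg adjusted p (FDR) under 0.05, with sex as a term and mouse as a random block. At an unadjusted p under 0.05 there were 887 genes (4.98%), 457 higher (2.56%) and 430 lower (2.41%). EdgeR and DESeq2, both run without a block for mouse, also called 0 genes, with 747 and 746 at an unadjusted p under 0.05. The smallest FDR was 0.655 with limma, 0.588 with edgeR and 0.0671 with DESeq2, where Edn2, Cd44, Cryzl2, Slc6a2 and Vwf had that value. Over all alternatives the FDR of these 5 genes ran from 0.0671 to 1.00. Without mouse 59896 the number at an unadjusted p under 0.05 was 1722, still with 0 called, and with library totals in place of TMM factors it split into 626 higher and 312 lower.

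The width of the intervals says what size of difference could have been missed. The 95% confidence interval of the log2 fold change lay within ±0.5 for 78.7% of the genes tested, and for 94.4% of the 14575 genes with a mean of at least 1 CPM. It lay within ±1 for 99.4% of the latter. The median log2 fold change over all genes tested was 0.0007, and 50.4% of genes were above 0. Among the 6 mice with an eye of each kind, 1.27% of genes were higher in the TNF eye of all 6 and 1.29% were lower in all 6. The TNF and PBS retinas did not overlap for 2 genes that were higher (0.0112%), Ror2 and the small nuclear RNA Gm26254, and for 1 gene that was lower (0.00561%), Tmem179. Gm26254 and Tmem179 were singled out after their values were seen. Their log2 fold changes were 0.65 and −0.14, and both had an FDR of 0.879.

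Of the genes with a mean of at least 1 CPM, the smallest p was that of Edn2 (ENSMUSG00000028635; chromosome 4, 120161206 to 120167360 in mm10), which encodes endothelin 2, a peptide that photoreceptors of a damaged retina release and that acts on Müller glia. Its level ranged from 4.90 to 14.7 CPM (median 8.22) in TNF retinas and from 2.10 to 5.30 CPM (median 3.65) in PBS retinas. TNF minus PBS came to 1.27 in log2 units (SE 0.25, 95% interval 0.75 to 1.79), a fold of 2.41, and the FDR was 0.655 by limma. In 8 of 9 TNF retinas Edn2 lay above every PBS retina. The exception was the right eye of mouse 59896, at 4.90 CPM, whose PBS partner at 5.30 CPM was the highest PBS retina, so the TNF eye was higher in 5 of 6 mice. The highest value, 14.7 CPM, was the TNF eye of mouse 59730, whose PBS eye was the lowest of all at 2.10 CPM.

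Edn2 belongs to a list of 10 genes of Müller gliosis and gp130 signaling. All 10 were tested and all 10 had a log2 fold change above 0, with a median of 0.37 against 0.0007 over all genes. At an unadjusted p under 0.05, 4 were higher and 0 lower, and none passed the FDR. Fgf2, a growth factor that Müller glia and photoreceptors make after injury, was between 4.64 and 8.08 CPM (median 6.44) after TNF and between 2.81 and 7.26 CPM (median 4.69) after PBS. In log2 units Fgf2 differed by 0.51 (SE 0.17), with 4 of 6 mice higher and ranges that overlap. Cebpd, a transcription factor induced by gp130 cytokines, was at a median of 5.71 CPM (3.98 to 6.67) against 3.87 CPM (2.64 to 5.62), with a log2 fold change of 0.44 (SE 0.11) and 5 of 6 mice higher. Stat3, the transcription factor that these receptors activate, differed by 0.09 (SE 0.04), and its feedback inhibitor Socs3 by 0.15. The cytokines Lif and Cntf and the NF-κB partner Bcl3 were at 0.44, 0.30 and 0.44, at medians under 1 CPM. The filament gene Nes differed by 0.21 and the shared receptor Il6st by 0.06. Exons of Cebpd overlap Spidr on the other strand over 15% of their bases, and those of Fgf2 overlap Nudt6 over 9.44%. Because the strand setting of the counting is not given in the sources used here, reads of such pairs cannot be told apart.

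**Figure D1:**
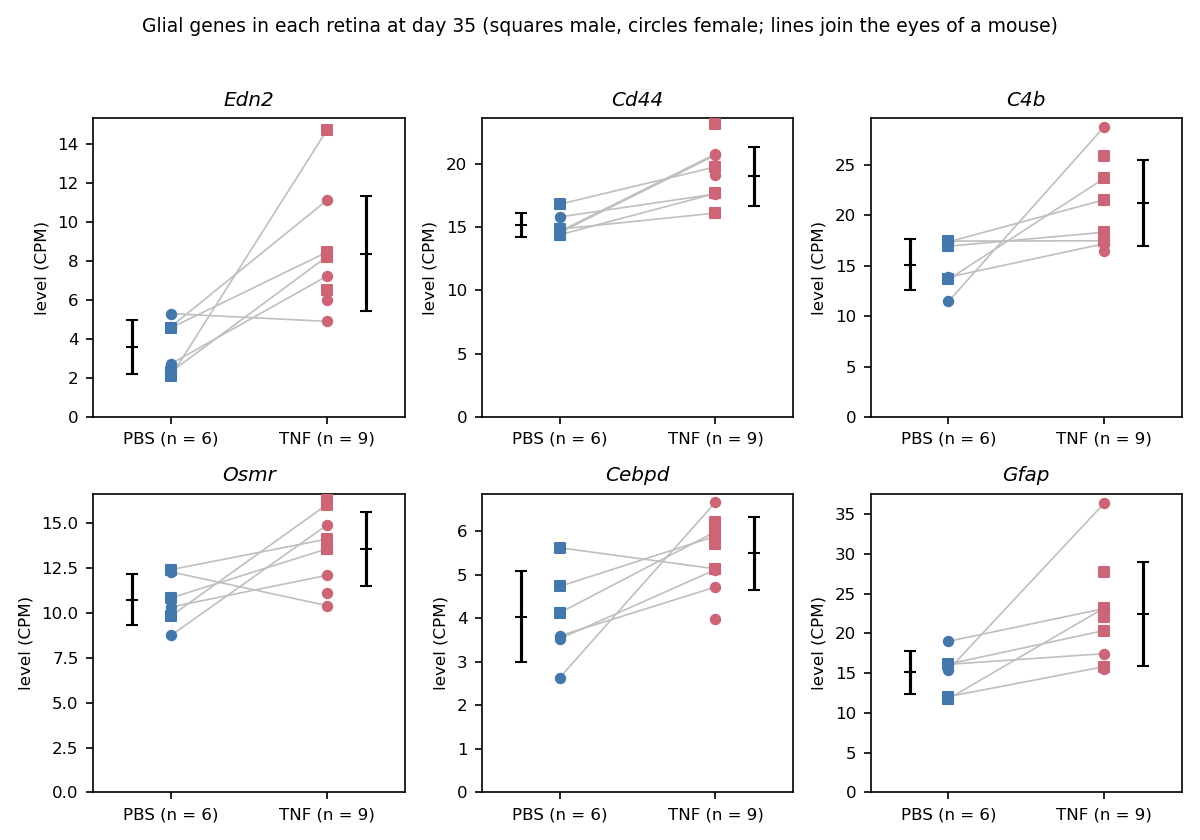
Level of 6 genes in CPM (vertical axes, starting at 0) in each PBS retina (blue, n = 6) and each TNF retina (red, n = 9) at day 35, with squares for males, circles for females, gray lines joining both eyes of a mouse, and black bars for the mean ± SD. TNF retinas lie above every PBS retina in 8 of 9 cases for Edn2, 7 of 9 for Cd44 and C4b, and 6 of 9 for Osmr and Gfap, while the ranges of all 6 genes overlap.

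Genes of the pan-reactive set, which astrocytes turn on after several kinds of injury, had positive log2 fold changes in all members tested, though 5 of the 11 did not reach an unadjusted p under 0.05 and none passed the FDR. Of 13 members 11 were tested, all 11 were above 0, and the median log2 fold change was 0.32. At an unadjusted p under 0.05, 6 were higher and 0 lower. Gfap (ENSMUSG00000020932), the intermediate filament of astrocytes and of reactive Müller glia, was between 15.6 and 36.4 CPM (median 22.1) in TNF retinas and between 11.8 and 19 CPM (median 15.8) in PBS retinas. Gfap differed by a log2 fold change of 0.55 (SE 0.15, 95% interval 0.23 to 0.87; FDR 0.879 by limma). Each of the 6 mice had more Gfap in its TNF eye, and 6 of 9 TNF retinas were above every PBS retina. The TNF eyes of mice 59892 and 59736 were lowest, at 15.6 and 15.8 CPM, and lay among the PBS retinas.

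Cd44 (ENSMUSG00000005087), a hyaluronan receptor of Müller cell processes, was between 16.1 and 23.2 CPM (median 19.1) after TNF and between 14.4 and 16.8 CPM (median 14.8) after PBS. Cd44 differed by a log2 fold change of 0.32 (SE 0.07; FDR 0.655 by limma), with 6 of 6 mice higher. Only the TNF eyes of mice 59732 and 59737 fell inside the range of the PBS retinas. Osmr, the receptor for oncostatin M, had a median of 13.6 CPM (10.4 to 16.3) against 10.6 CPM (8.75 to 12.4), a log2 fold change of 0.34 (SE 0.09) and 5 of 6 mice higher. Steap4, a metalloreductase, was at 1.54 CPM (1.30 to 2.26) against 0.931 CPM (0.635 to 1.82), with a log2 fold change of 0.73 (SE 0.19). Lcn2, the siderophore-binding lipocalin, and S1pr3, a sphingosine phosphate receptor, differed by 0.32 (SE 0.13) and 0.19 (SE 0.07), each higher in 5 of 6 mice. Serpina3n, a secreted protease inhibitor, was at 0.46 (SE 0.26), with ranges of 6.62 to 19.1 and 4.17 to 19.8 CPM that overlap almost fully. The members Cp and Vim, at 0.09 and 0.06, were near 0.

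Of the 11 A1 genes tested, 1 was higher at an unadjusted p under 0.05 and the median was 0.10, with 8 of 11 above 0. That gene was Gbp2, an interferon-induced GTPase, at 0.29 (SE 0.11) and 5 of 6 mice higher. Of the 11 A2 genes tested, Cd14 was higher at 0.42 (SE 0.19) and Emp1 lower at −1.56 (SE 0.43), and the median was −0.01 with TMM factors and 0.0044 with library totals. Emp1 is an epithelial membrane protein and is named again below. A1 shares Gbp2 with the interferon list, H2-D1 and Psmb8 with the MHC class I list and Serping1 with the complement list, and the pan-reactive list shares Gfap with the astrocyte list, Vim with the Müller glia list and the untested Cxcl10 with the interferon list. Elsewhere, Spp1 is in the RGC type and disease-associated microglia lists, Apoe in the latter and the Müller glia list, Stmn2 in the RGC identity and SARM1 lists, and Bbc3 and Hrk in the RGC injury and cell death lists.

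**Figure D2:**
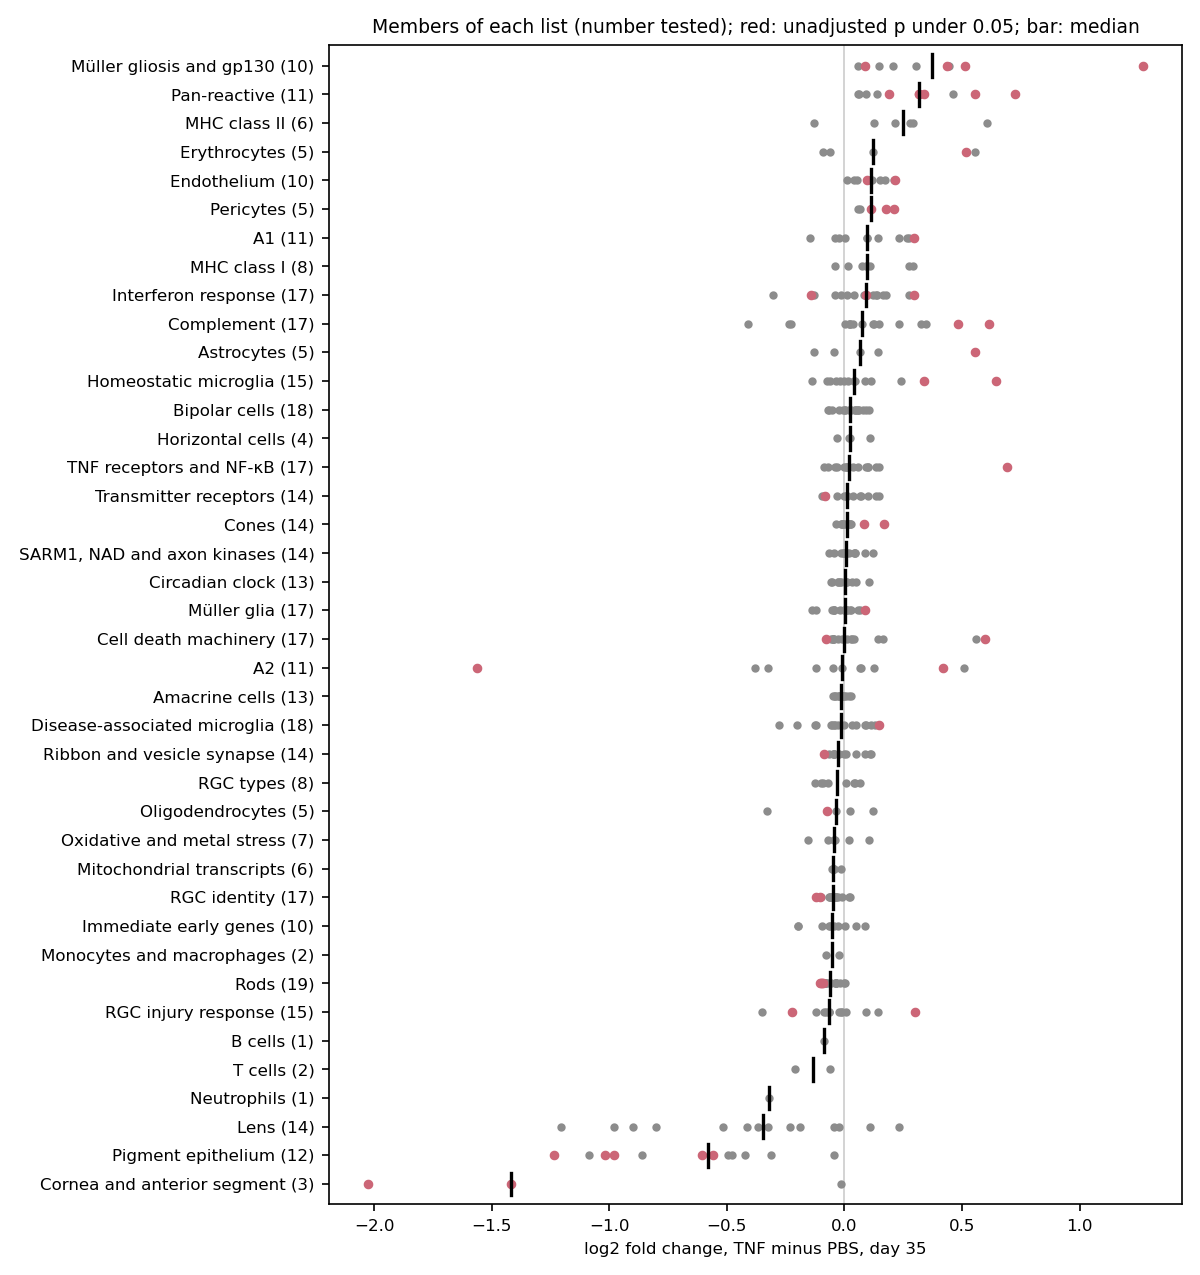
Log2 fold change, TNF minus PBS at day 35 (horizontal axis), of each tested member of 40 gene lists (gray points, or red at an unadjusted p under 0.05), with the number tested in parentheses and a black bar at the median of each list. All 10 members of the Müller gliosis list and all 11 of the pan-reactive list lie above 0, all 12 pigment epithelium genes lie below 0, and the lists of retinal neurons stay close to 0.

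The gene rule also named several genes outside the glial lists. Slc6a2, the noradrenaline transporter, was between 0.819 and 2.62 CPM (median 1.43) in TNF retinas and between 0.484 and 1.11 CPM (median 0.660) in PBS retinas. Slc6a2 differed by a log2 fold change of 1.08 (SE 0.25; FDR 0.655 by limma), with 6 of 6 mice higher and 7 of 9 TNF retinas above every PBS retina. Ror2, a receptor tyrosine kinase for Wnt5a, was between 2.36 and 2.73 CPM (median 2.56) against 1.71 and 2.31 CPM (median 1.90). The ranges of Ror2 do not overlap, though the gap is only between 2.31 CPM in the PBS eye and 2.36 CPM in the TNF eye of the same mouse, 59736. Its log2 fold change was 0.41 (SE 0.10; FDR 0.828). Cryzl2 was at 2.53 CPM (2.11 to 3.50) against 1.75 CPM (1.68 to 2.41), a log2 fold change of 0.52 (SE 0.11; FDR 0.655) with 6 of 6 mice higher, and only the PBS eye of mouse 59894 reached into the TNF range. Nudt6, which lies antisense to Fgf2 and shares 640 exon bases with it (38.2% of its own), differed by 0.29 (SE 0.06; FDR 0.655) and may hold reads of Fgf2. Klhl2, an adaptor of a cullin ubiquitin ligase, was lower by a small margin, with −0.14 (SE 0.03; FDR 0.655) and 6 of 6 mice lower.

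Of 17 complement genes tested, 14 were above 0, 2 were higher and 0 lower at an unadjusted p under 0.05, and the median was 0.08. That median ran from 0.04 without mouse 59736 to 0.14 without mouse 59732. The number higher ran from 1 to 4 over all alternatives. C4b (ENSMUSG00000073418), the fourth component, was between 16.4 and 28.8 CPM (median 21.6) after TNF and between 11.5 and 17.5 CPM (median 15.4) after PBS, a log2 fold change of 0.48 (SE 0.12; FDR 0.879 by limma). The TNF eye was higher in 6 of 6 mice and 7 of 9 TNF retinas lay above every PBS retina, although the eyes of mouse 59732 hardly differed. C4b has a near-identical neighbor, C4a, with which the counting could have split reads. C3, the component on which all complement pathways meet, was at 3.53 CPM (1.65 to 5.23) against 2.43 CPM (1.48 to 3.53), with a log2 fold change of 0.61 (SE 0.22) and 5 of 6 mice higher. C1qa, the initiator made by microglia, differed by only 0.13 (SE 0.09).

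Among 17 tested genes of TNF receptors and NF-κB signaling, 1 was higher and 0 lower at an unadjusted p under 0.05, and the median was 0.02. It was Icam1, the leukocyte adhesion molecule that NF-κB induces, at 1.69 CPM (0.686 to 2.06) against 1.02 CPM (0.621 to 1.27). Its log2 fold change was 0.69 (SE 0.18; FDR 0.879), with 6 of 6 mice higher and 8 of 9 TNF retinas above every PBS retina, and only the TNF eye of mouse 59892 was low. Exons of Icam1 overlap Gm47079 on the other strand over 11.7% of their bases. The receptors Tnfrsf1a and Tnfrsf1b were at 0.02 (SE 0.11) and 0.10 (SE 0.15), and the NF-κB inhibitors Nfkbia and Tnfaip3 at −0.0013 and −0.07. Tnf itself was at most 0.0795 CPM in any TNF retina and too low to be tested, as were Il6, Ccl2, Cxcl1 and Traf1.

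Of 17 interferon response genes tested, 2 were higher and 1 was lower at an unadjusted p under 0.05, with a median of 0.09. Besides Gbp2 these were Stat2, a transcription factor of the pathway, at 0.09 (SE 0.04), and Ifit3, an antiviral protein, at −0.14 (SE 0.07). The median of the interferon list ran from 0.05 without mouse 59895 to 0.10 with library totals. Over all alternatives 0 to 5 of its genes were higher and 0 to 2 lower at that p. None of the 8 MHC class I genes reached an unadjusted p under 0.05, and the median was 0.095, with B2m at 0.11 (SE 0.07). None of the 6 MHC class II genes tested did so either, at a median of 0.25. That median ran from 0.13 without mouse 59894 to 0.45 with the tissue terms described below. The class II genes were low and imprecise: Cd74, the invariant chain, was between 0.577 and 2.77 CPM after TNF and between 0.595 and 2.42 CPM after PBS, and the interval of its log2 fold change ran from −0.31 to 0.87.

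Microglial genes were close to their level in PBS retinas. Of 15 genes of homeostatic microglia, 2 were higher and 0 lower at an unadjusted p under 0.05, with a median of 0.04. The 2 were Fcrls at 0.65 (SE 0.27) and Selplg at 0.34 (SE 0.16), both with ranges that overlap. P2ry12, the ADP receptor of resting microglia, was at 2.48 CPM (1.91 to 2.76) against 2.50 CPM (2.19 to 3.34), and Csf1r, the receptor microglia need to survive, at 9.69 CPM (8.49 to 10.4) against 10.1 CPM (8.18 to 11.9). Their log2 fold changes were −0.14 (SE 0.11) and −0.06 (SE 0.07), with an upper bound of 0.08 for Csf1r. Of 18 disease-associated microglia genes tested, 1 was higher, Axl at 0.15 (SE 0.06), and the median was −0.02. Trem2, the lipid receptor that drives this state, was at 0.13 with an interval from −0.25 to 0.51, and Clec7a and Cst7 had wider intervals, at medians of 0.634 and 0.344 CPM in TNF retinas. The summed level of the homeostatic list was 109 to 118 CPM (median 112) in TNF retinas and 102 to 117 CPM (median 114) in PBS retinas. Its most abundant member was Tgfbr1, while P2ry12 and Csf1r, at the levels above, made up a small part of that sum.

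Most markers of white blood cells were at or near 0. S100a8, S100a9, Ccr2, Ly6c2, Cd3e and Cd3d had medians of 0 to 0.0483 CPM in TNF retinas and were too low to be tested. Only 1 of 7 neutrophil genes, 2 of 8 monocyte and macrophage genes, 2 of 7 T cell genes and 1 of 4 B cell genes could be tested, none reached an unadjusted p under 0.05, and the medians of these lists were −0.32, −0.05, −0.14 and −0.09. The summed neutrophil list was 0.165 to 1.56 CPM after TNF and 0.518 to 0.996 CPM after PBS, with Camp the most abundant and Ly6g at 0 in all 15 retinas. Ms4a1 of the B cell list was at 0 in TNF retinas. The monocyte and macrophage sum was higher, at 6.36 to 13.4 CPM (median 10.2) after TNF and 8.72 to 13.2 CPM (median 11.1) after PBS, and nearly all of it was Lyve1, a hyaluronan receptor of resident macrophages and lymphatic vessels. The erythrocyte sum was 9.76 to 23.1 CPM (median 12.2) and 9.47 to 16.3 CPM (median 12). Among 5 erythrocyte genes, Alas2, the enzyme of heme synthesis, was higher at 0.52 (SE 0.21), while Hbb-bs and Hba-a1 were at 0.12 and −0.09. The hemoglobin genes have near-identical copies and their counts are uncertain, and exons of Alas2 overlap Apex2 on the other strand.

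RGC genes differed by little, and nearly all in the same direction. All 17 RGC identity genes were tested, 15 were below 0, 0 were higher and 2 were lower at an unadjusted p under 0.05, and the median was −0.05. With the tissue terms described below 0 were lower and the median was −0.0078. With library totals in place of TMM factors the median was −0.04 and 14 remained below 0. All 17 intervals lay within ±0.5, and their lowest and highest bounds were −0.23 and 0.18. Rbpms, an RNA-binding protein found in RGCs of every type, was at 28.6 CPM (26.6 to 35.2) after TNF and 29.5 CPM (25.8 to 32.8) after PBS, a log2 fold change of 0.02 (SE 0.04), and 3 of 6 mice were higher. Pou4f1, which encodes the transcription factor BRN3A, was at 31.5 CPM (27.7 to 35.6) against 32.2 CPM (29.8 to 34.1), a log2 fold change of −0.05 (SE 0.05). For both genes the retinas of the 2 groups overlapped.

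The vesicular glutamate transporter Slc17a6, the surface protein Thy1 and the neurofilament Nefl were at −0.06 (SE 0.05), −0.04 (SE 0.04) and −0.06 (SE 0.04). Sncg, gamma-synuclein, was at 36.5 CPM (33.5 to 40.0) against 40.5 CPM (33.8 to 42.9), with −0.10 (SE 0.05) and 5 of 6 mice lower. The 2 genes at an unadjusted p under 0.05 were Rbpms2, at 20.5 CPM (17.6 to 23.4) against 22.2 CPM (20.6 to 24.5) and −0.12 (SE 0.05), and Nefm, at −0.10 (SE 0.05). Rbpms2 was lower in the TNF eye of 6 of 6 mice, but the highest TNF retina, 23.4 CPM in mouse 59731, was above 5 of the 6 PBS retinas. Exons of Nefm overlap those of Nefl on the other strand over 19.2% of their bases, so the 2 are uncertain. The summed RGC list was 1239 to 1397 CPM (median 1314) in TNF retinas and 1271 to 1415 CPM (median 1402) in PBS retinas, lower in the TNF eye of 5 of 6 mice. Of 8 genes that mark RGC types, none reached an unadjusted p under 0.05 and the median was −0.03. Opn4, the melanopsin of intrinsically photosensitive RGCs, was at 0.07 (SE 0.11), Kcng4 of alpha RGCs at 0.04 (SE 0.06) and Tbr1 at 0.01 (SE 0.08).

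**Figure D3:**
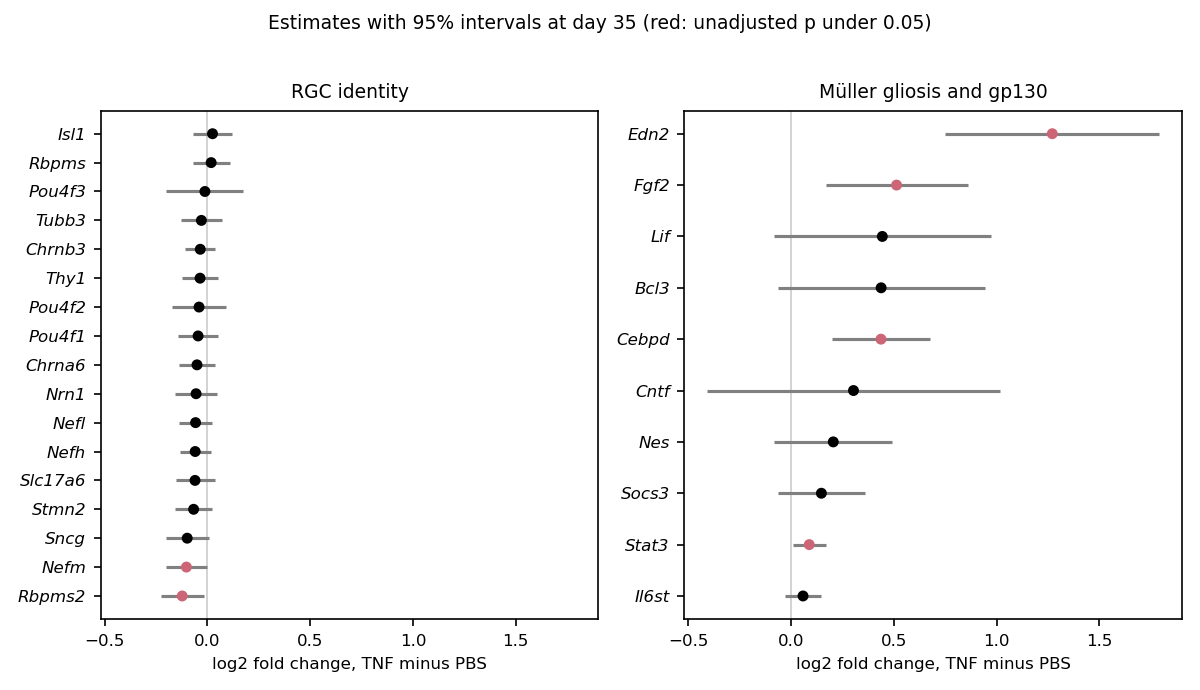
Log2 fold change, TNF minus PBS at day 35 (horizontal axes), with 95% confidence intervals for the 17 RGC identity genes (left) and the 10 genes of Müller gliosis and gp130 signaling (right), from 9 TNF and 6 PBS retinas, with points in red at an unadjusted p under 0.05. The RGC intervals all lie between −0.23 and 0.18, whereas Edn2 has an interval from 0.75 to 1.79.

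Of 19 rod genes, 18 were below 0 (17 with library totals), 4 were lower and 0 higher at an unadjusted p under 0.05, and the median was −0.06. The other 15 did not reach that p, and none of the 19 passed the FDR. Over all alternatives the number lower at that p ran from 0, with the tissue terms described below, to 8, and the median from −0.02 to −0.09 without mouse 59896. All 19 intervals lay within ±0.5, with a lowest bound of −0.20. Gnat1, the rod transducin, was at 9927 CPM (8856 to 10565) after TNF and 10279 CPM (9404 to 11539) after PBS, a difference of −0.08 in log2 units (SE 0.05), with 5 of 6 mice lower and ranges that overlap. Pde6b, a subunit of the rod phosphodiesterase, was at −0.03 (SE 0.04). The 4 were the phosphodiesterase inhibitory subunit Pde6g, the disc protein Rom1, the rod transcription factor Nrl and the trafficking protein Reep6, at −0.10, −0.11, −0.09 and −0.10, and each was lower in 5 of 6 mice with ranges that overlap.

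Cone genes centered on 0, with a median of 0.01 over 14 genes, 2 of them higher and 0 lower at an unadjusted p under 0.05. Gnb3, the transducin beta subunit of cones and ON bipolar cells, was at 290 CPM (276 to 315) against 260 CPM (233 to 293), a log2 fold change of 0.17 (SE 0.04; FDR 0.655 by limma) with 6 of 6 mice higher and 4 of 9 TNF retinas above every PBS retina. Pde6c, the cone phosphodiesterase, was at 0.08 (SE 0.04). The cone opsins Opn1sw and Opn1mw and the cone arrestin Arr3 were at 0.01, −0.01 and 0.03. The cone median was −0.0072 without mouse 59894, and the difference between the rod and cone lists was not tested.

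None of the 18 bipolar genes reached an unadjusted p under 0.05, the median was 0.02 and every interval lay within ±0.5, with Prkca at 0.0031 and the ON bipolar glutamate receptor Grm6 at 0.06. Nor did any of the 13 amacrine genes tested, whose median was −0.01 with TMM factors and 0.0003 with library totals. Gad1, which makes GABA, was at 292 CPM (267 to 309) against 295 CPM (279 to 315), and Chat, which marks starburst amacrine cells, at 0.03 (SE 0.06). None of the 4 horizontal cell genes did so, at a median of 0.02. Of 14 genes of ribbon and vesicle synapses 1 was lower, Unc119, a photoreceptor lipid-binding protein, at −0.09 (SE 0.04), and the median was −0.03, with the ribbon protein Ctbp2 at 0.01. Of 14 transmitter receptor genes 1 was lower, the GABA receptor subunit Gabra3 at −0.08 (SE 0.04), and the median was 0.01.

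Of 17 Müller glia genes, 1 was higher and 0 lower at an unadjusted p under 0.05, and the median was 0.0010, a contrast with the gliosis list that was not tested. Glul, which makes glutamine from glutamate, was at 2518 CPM (2230 to 2607) after TNF and 2475 CPM (2264 to 2610) after PBS, a log2 fold change of 0.0040 (SE 0.04). Rlbp1, a retinoid-binding protein, and Kcnj10, the potassium channel, were at −0.04 (SE 0.04) and 0.02 (SE 0.04). The gene that was higher was the water channel Aqp4, at 153 CPM (144 to 172) against 146 CPM (140 to 157) and 0.09 (SE 0.04). Of 5 astrocyte genes, Gfap was the 1 at an unadjusted p under 0.05, and the median was 0.06, which ran from −0.06 without mouse 59736 to 0.19 with the tissue terms. Among the others were Pax2 at 0.06 (SE 0.20), Pdgfra at 0.14 (SE 0.07) and S100b at −0.13 (SE 0.09). Of 8 oligodendrocyte genes 5 were tested, 1 was lower, and the median was −0.04. It was the myelin gene Mbp, at 36.0 CPM (34.2 to 38.5) against 38.3 CPM (36.1 to 39.7), −0.08 (SE 0.03), with 6 of 6 mice lower.

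Of 15 RGC injury genes tested, 1 was higher and 1 lower at an unadjusted p under 0.05, with a median of −0.07. Gadd45b, a stress-induced gene, was at 5.23 CPM (3.82 to 6.34) against 4.21 CPM (3.42 to 4.93), with 0.30 (SE 0.10) and 6 of 6 mice higher, and the neuropeptide gene Adcyap1 was at −0.22 (SE 0.09). Atf3 and Jun, transcription factors that injured RGCs turn on, were at 0.01 (SE 0.08) and −0.09 (SE 0.04). Of 17 cell death genes tested, the pro-apoptotic Pmaip1 was higher at 0.60 (SE 0.24) and the survival gene Bcl2 lower at −0.08 (SE 0.04), with 6 of 6 mice lower, and the median was −0.0005, with 0.01 under library totals. Casp8, which TNF receptors can activate, was at 0.16 (SE 0.15), and Bax at −0.06 (SE 0.06). Ripk3 and Mlkl, needed for necroptosis, were too low to be tested, with at most 0.165 CPM of Ripk3 in any TNF retina.

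None of the 14 genes of the SARM1, NAD and axon kinase list reached an unadjusted p under 0.05, and the median was 0.01, with every interval within ±0.5. Sarm1, the NADase that degrades axons, was at 115 CPM (105 to 131) after TNF and 112 CPM (102 to 128) after PBS, a log2 fold change of 0.05 (SE 0.04). Its counterpart Nmnat2, which makes NAD in axons, and the kinase Map3k12 were at −0.0023 (SE 0.04) and 0.0028 (SE 0.04). None of 7 oxidative and metal stress genes, 10 immediate early genes tested, 13 circadian clock genes or 6 mitochondrial transcripts reached an unadjusted p under 0.05, and the medians were −0.04, −0.05, 0.0015 and −0.05. Hmox1, the heme oxygenase, was at −0.15 (SE 0.11) and Fos at −0.06 (SE 0.07). The mitochondrial mt-Co1 was at 9897 CPM (7956 to 10464) against 9701 CPM (9305 to 10804).

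All 10 endothelial genes were above 0, 2 were higher and 0 lower at an unadjusted p under 0.05, and the median was 0.11. All 5 pericyte genes were above 0, 3 were higher at an unadjusted p under 0.05, and the median was 0.11. None passed the FDR. Over all genes tested, 50.4% were above 0 and 2.56% were higher at an unadjusted p under 0.05. Both lists kept every member above 0 with library totals, but with the tissue terms described below 8 of 10 and 3 of 5 were above 0, and 1 endothelial and 0 pericyte genes were higher at an unadjusted p under 0.05. Without mouse 59896 the medians were 0.17 for the endothelial and 0.20 for the pericyte genes, the highest of all alternatives. The lowest endothelial median was 0.06, without the retinas high in pigment genes, and the lowest pericyte median was 0.07, with the tissue terms. The VEGF receptor Flt1 was at 0.10 (SE 0.05) and the lipid transporter Mfsd2a at 0.21 (SE 0.10), and the pericyte genes were Rgs5, Abcc9 and Pdgfrb at 0.18, 0.21 and 0.11. Vwf, the clotting factor of endothelium, which the gene rule named and neither list holds, was at 15.1 CPM (11.6 to 21) against 11.7 CPM (9.59 to 14.5), a log2 fold change of 0.45 (SE 0.11; FDR 0.879 by limma). It was higher in 6 of 6 mice, and 6 of 9 TNF retinas were above every PBS retina. One PBS retina, the left eye of mouse 59732, had the lowest pericyte sum, 92.4 CPM against a median of 127 CPM for PBS retinas.

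The only genes that passed a test of TNF against PBS at day 35 in a planned fit were 2 genes of surface epithelium, and both fell. With mouse as a fixed factor in the 6 mice that gave both eyes, limma called 2 genes (0.0112%), Asprv1 and Muc4, with 764 at an unadjusted p under 0.05. Asprv1 (ENSMUSG00000033508; chromosome 6, 86628164 to 86629710), a protease of stratified epithelium, was between 0.846 and 2.88 CPM (median 1.40) in TNF retinas and between 1.80 and 6.54 CPM (median 3.26) in PBS retinas. The difference in log2 units was −1.10 (SE 0.25; FDR 0.655) with the random block and −1.13 (FDR 0.0206) with mouse fixed, lower in 6 of 6 mice. Over all alternatives its FDR ran from 0.0187 to 1.00. Muc4 (ENSMUSG00000079620; chromosome 16, 32735886 to 32782391), a membrane mucin of the ocular surface, was between 0.151 and 3.63 CPM (median 1.04) against 0.350 and 12.1 CPM (median 4.38). Its log2 fold change was −1.71 (SE 0.66; FDR 0.879) with the random block and −1.88 (FDR 0.0415) with mouse fixed, lower in 6 of 6 mice, and its FDR ran from 0.0357 to 1.00 over all alternatives. Muc4 overlaps Muc20 on the other strand over 5.33% of its exon bases.

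Besides Muc4 and Edn2, the gene rule named 8 genes by the size of the log2 fold change, and all 8 were below 0. They were grouped here after their values were seen and are no list of the analysis. The keratins Krt4 and Krt13 of mucosal epithelium were at −2.40 (SE 0.93) and −2.36 (SE 0.76), the basal keratins Krt15 and Krt5 at −2.20 (SE 0.78) and −2.03 (SE 0.80), and the goblet cell mucin Muc5ac at −1.55 (SE 0.74). Emp1, the corneal enzyme Aldh3a1 and Plet1 were at −1.56 (SE 0.43), −1.42 (SE 0.64) and −1.25 (SE 0.37). All 8 had an FDR of 0.879 by limma. Each was lower in 5 or 6 of 6 mice, but the rule that named them asks for the same sign in at least 5. Levels were low in most retinas and high in a few: Krt4 was between 0 and 1.94 CPM (median 0.193) after TNF and between 0.0841 and 8.98 CPM (median 1.00) after PBS, and both eyes of mouse 59732 were among the 3 highest.

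The cornea and anterior segment list has 5 genes, of which 3 were tested, 2 of them lower, with a median of −1.42. These 2 are Krt5 and Aldh3a1, which were already named above, so the list is no separate evidence for them, and the other member, Myoc, was at −0.02. The median of the list ran from −2.14 without mouse 59736 to −0.08 with the tissue terms described below, which include this list. Its summed level was 0.936 to 16.4 CPM (median 1.15) in TNF retinas and 1.21 to 23.4 CPM (median 3.75) in PBS retinas, and it was lower in the TNF eye of 6 of 6 mice. The most abundant member was Aldh3a1, and the defining corneal keratin Krt12 was at a median of 0.0793 CPM in TNF and 0.0792 CPM in PBS retinas. These medians hide single retinas with more Krt12. It was at 3.0135 CPM in the TNF eye and 1.8008 CPM in the PBS eye of mouse 59732. In the PBS eye of mouse 59730 Krt12 was at 1.4994 CPM, but in that of mouse 59894 at only 0.077647 CPM. The sums were highest in the PBS and the TNF eye of mouse 59732, at 23.4 and 16.4 CPM, followed by the PBS eyes of mice 59730 and 59894 at 10.01 and 5.33 CPM. All 12 pigment epithelium genes were below 0, 5 were lower at an unadjusted p under 0.05, and the median was −0.58. Their sum was 33.4 to 139 CPM (median 93.3) after TNF and 60.6 to 227 CPM (median 109) after PBS, again lower in 6 of 6 mice, with the PBS eyes of mice 59732 and 59896 highest at 227 and 211 CPM.

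Within the pigment list, the melanosome genes Mlana, Tyrp1 and Pmel were at −1.24 (SE 0.46), −1.02 (SE 0.44) and −0.98 (SE 0.39), the transporter Slc45a2 at −0.61 (SE 0.23) and Ttr, the most abundant member, at −0.56 (SE 0.26). Rpe65, the isomerase that defines the pigment epithelium, was at −0.48 (SE 0.27). The 14 lens genes tested had a median of −0.35, which ran from −0.99 to 0.34 over all alternatives and so had no stable direction, with 0 at an unadjusted p under 0.05, and a sum that scattered from 2.17 to 63.4 CPM and from 2.11 to 73.7 CPM. With the log2 sums of the pigment and cornea lists as terms, an alternative chosen after seeing the data, limma called 0 genes and 550 were at an unadjusted p under 0.05. In that fit Asprv1 and Muc4, which are in neither list, were at −0.59 and −0.77. Edn2 was at 1.15, Gfap at 0.55, Cd44 at 0.32 and C4b at 0.48. At an unadjusted p under 0.05, 9 pan-reactive genes were higher in place of 6, a count that ran from 0 in the joint fit of the days to 9 over all alternatives, and the median of that list was 0.24 in place of 0.32 and 10 of 11 were above 0. In the Müller gliosis list 3 genes were higher in place of 4, with a median of 0.36. The count for that list ran from 1 to 6 over all alternatives. The median of the rod list was then −0.02.

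**Figure D4:**
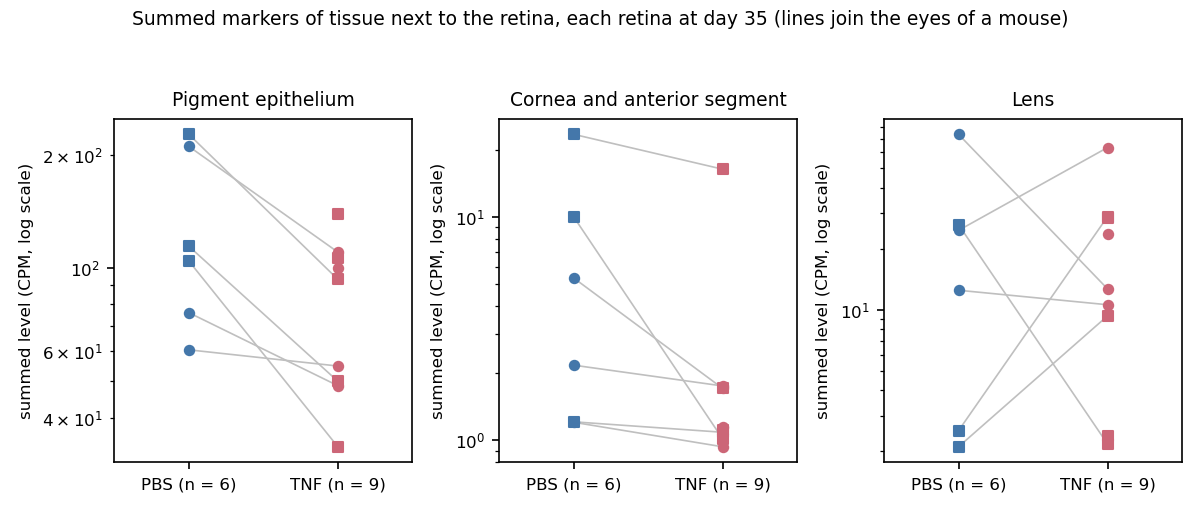
Summed level in CPM (vertical axes on a log scale) of the pigment epithelium, cornea and anterior segment, and lens lists in each PBS retina (blue, n = 6) and TNF retina (red, n = 9) at day 35, with squares for males, circles for females and gray lines joining both eyes of a mouse. The first 2 sums are lower in the TNF eye of 6 of 6 mice, and the lens sum is lower in 3 of 6.

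The same 15 retinas, from 9 mice, separated the sexes. Sex differs only between mice, so the mice and not the retinas are its replicates. The fit links the eyes of a mouse by a correlation of 0.0794 that all genes share. Limma called 2651 genes (14.9%) between females and males at an FDR under 0.05, 1366 higher and 1285 lower in females. The first 10 by p at a mean of at least 1 CPM were Xist, the Y-linked Ddx3y, Kdm5d, Uty and Eif2s3y, the X-linked Kdm6a, Eif2s3x and Ddx3x, and Pde10a and Glp2r. Pde10a, a phosphodiesterase, was at −1.05 (SE 0.05, FDR 4.36e-12) and Glp2r, a peptide hormone receptor, at 0.70 (SE 0.04, FDR 3.54e-10). Without mouse 59894 the count was 1682 and without mouse 59895 it was 1709. Xist and the Y-linked genes mark sex itself. Because the female and male mice also differ in their series of numbers, the other genes cannot be assigned to sex alone.

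No gene passed the test of whether the TNF difference itself differed between the sexes. Limma called 0 genes (0%), with 1925 at an unadjusted p under 0.05 (10.8%), and edgeR called 0, with 1489. The 5 genes with the smallest p at a mean of at least 1 CPM were Ccdc57, Spaca6, Etv4, Col27a1 and Stac3, with FDRs of 0.415 to 0.420 and a difference, female minus male, of −0.46 to −1.16. All 5 were higher after TNF in males and lower after TNF in females. Stac3, for example, had a mean of 4.15 CPM after TNF and 2.73 CPM after PBS in males, and of 2.33 CPM and 3.45 CPM in females. For Edn2 the difference, female minus male, was −0.95 (FDR 0.468).

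The TNF difference at day 35 was also compared with that at days 2 and 14, in a joint fit of 67 retinas in which the days share no mouse. That fit called 238 genes between TNF and PBS at day 2, 221 higher and 17 lower, 0 at day 14 and 0 at day 35. The groups were 8 TNF and 31 PBS retinas at day 2, 6 and 7 at day 14, and 9 and 6 at day 35. With such unequal groups, the counts cannot be compared as sizes of the TNF difference. For day 35 against day 2, limma called 0 of 19739 genes, with 571 at an unadjusted p under 0.05 (2.89%), and edgeR called 0, with 603. For day 35 against day 14, limma called 0, with 359 at an unadjusted p under 0.05 (1.82%), and edgeR called 0, with 333. At a mean of at least 1 CPM, the genes with the smallest p were B4galnt1, Prcp, Shq1, Ddx59 and Mbp against day 2, where Mbp differed by −0.18 (SE 0.05), and Mir1839, Wfdc2, Lrp3, Krt15 and Zfp389 against day 14, all with an FDR of 1.00. For 3 genes picked after their values were seen, the log2 fold changes at days 2, 14 and 35 were −0.04, 0.32 and 1.28 for Edn2, 0.15, 0.34 and 0.55 for Gfap, and −0.32, 0.68 and 0.49 for C4b. The difference of Edn2 between days 35 and 2 was 1.33 (SE 0.57; FDR 1.00), so these values do not show a change with time. For the microglial gene Csf1r they were 0.72, 0.14 and −0.06, for Trem2 0.95, 0.27 and 0.14, and for Ciita, the regulator of MHC class II, 0.82, 0.27 and 0.11, again with an FDR of 1.00 for the difference between days 35 and 2.

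The levels on which these fold changes rest were very different between days. On the scale of the joint fit, Edn2 in PBS retinas was 52.8 ± 21.1 CPM (SD, n = 31) at day 2, 22.7 ± 11.6 CPM (SD, n = 7) at day 14 and 3.71 ± 1.42 CPM (SD, n = 6) at day 35. After TNF it was 47.6 ± 14.6 CPM (SD, n = 8), 26.1 ± 6.67 CPM (SD, n = 6) and 8.60 ± 3.04 CPM (SD, n = 9). Edn2 in TNF retinas at day 35 was thus above the PBS retinas of the same day and below both groups of the earlier days. Gfap in PBS retinas was 92.0, 34.5 and 15.5 CPM at the 3 days, against 98.5, 46.9 and 23 CPM in TNF retinas, and Cd44 was 55.1, 24.8 and 15.6 CPM against 55.7, 36.3 and 19.5 CPM. RGC genes differed less between days and mostly in the other direction, toward higher levels at later days. In PBS retinas Nefl was 285, 315 and 348 CPM, Nefm 108.5, 120.2 and 135 CPM, Slc17a6 68.0, 75.0 and 81.4 CPM and Thy1 126, 135 and 144 CPM, while Rbpms was 30.7, 32.5 and 30.5 CPM. The days are separate groups of mice, and many of the day 2 PBS eyes belong to mice whose other eye received IL1A or IL1A with TNF, so time and group cannot be told apart, and these levels were not tested.

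Several limits apply. With 9 TNF and 6 PBS retinas, differences in genes of low count could have been missed, as the width of their intervals shows. The 3 mice without a PBS eye add to the TNF group only. Bulk RNA does not assign a transcript to a cell type, and the gene lists are of markers known from other work but were chosen with earlier results of these data known, so that all members of a list lying above 0 is weaker evidence than it would be for a list chosen blind. Tissue next to the retina was measured through its own genes, and the terms for it use those same genes, so the fit with these terms cannot tell carry-over at dissection from a change of that tissue in the eye. Protein, cell counts and function were not measured here.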

How the data were processed

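RNA of whole retinas was used as deposited. Per the submitters' processing notes, read pairs were aligned to mm10 with STAR 2.7.9a and summed per gene with featureCounts (Subread 2.0.1), and the authors deposited raw counts for 37315 genes. The annotation release and the strand setting are not given in the sources used here. Symbols and positions of 35533 genes came from GENCODE on GRCm38.

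The fits ran under R 4.3.3, using edgeR 4.0.16, limma 3.58.1, statmod 1.5.0 and DESeq2 1.42.0. Low counts were removed through filterByExpr (minimum 10), and the remaining genes were scaled with TMM factors, and fitted with voom and duplicateCorrelation in 2 rounds (mouse as block, correlation 0.0794) with treatment and sex as terms. P-values were adjusted by Benjamini-Hochberg over all genes tested. The steps were tested on simulated data.

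Named genes were those at an FDR under 0.05 with mouse as a random or fixed block, the 10 with the smallest p at a mean of at least 1 CPM, the 10 with the largest log2 fold change among genes at an unadjusted p under 0.05 with the same sign in at least 5 of 6 mice, and lead genes or members at an unadjusted p under 0.05 of 40 lists. For other comparisons they were the genes called, up to 10, or otherwise the 5 with the smallest p, at a mean of at least 1 CPM. The members and lists were chosen with earlier results of these data known.

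Samples are paired because 6 mice gave a TNF and a PBS eye. Residuals of the 2 eyes had a median correlation of 0.134 (−0.107 to 0.195), against −0.0353 for different mice. Count columns differed between all pairs of retinas (chi-square per degree of freedom at least 3.035). Alternatives were edgeR and DESeq2 (both without a block), limma with no block, mouse as a fixed factor, no sex term, eye side, other scalings and filters, sample weights, a joint fit of the days and each mouse left out. After seeing the data, fits with mouse fixed in all 15 retinas, without retinas high in cornea or pigment genes, and with those lists as terms were added, as was a sign-flip test of total counts within mice.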

Additional observations from a re-analysis of the deposited data

Results flagged for a closer look

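Of 120 groups of values examined, 21 held a retina that stood far apart from the rest of its group. Chance alone does so in about 1 in 20 groups of independent, normally distributed values. Levels near 0 CPM are not so distributed, and several of the groups single out the same retina, so the count cannot be judged against that rate.

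Most of these values come from mouse 59732. Its right, TNF-injected retina had the highest level among TNF retinas of Muc4 (3.63 CPM), Krt4 (1.94 CPM), Krt13 (3.85 CPM), Krt15 (3.71 CPM), Krt5 (6.57 CPM), Emp1 (8.58 CPM) and Aldh3a1 (5.84 CPM), and the highest sums of the cornea (16.4 CPM) and oligodendrocyte (62.4 CPM) lists. Its left, PBS-injected retina had the highest level among PBS retinas of Krt4 (8.98 CPM), Krt13 (11.6 CPM) and Aldh3a1 (10.1 CPM), and the lowest pericyte sum (92.4 CPM).

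Among the other TNF retinas, the left eye of mouse 59731 had the highest sums of homeostatic microglia (118 CPM) and of oxidative and metal stress genes (206 CPM). The left eye of mouse 59894 had the highest endothelial sum (454 CPM), that of mouse 59895 the highest lens sum (63.4 CPM), that of mouse 59730 the highest erythrocyte sum (23.1 CPM) and that of mouse 59737 the highest neutrophil sum (1.56 CPM). Among PBS retinas, the right eye of mouse 59894 had the lowest sum of homeostatic microglia (102 CPM) and the highest lens sum (73.7 CPM).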

How the results depend on the processing

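The count of 0 genes called between TNF and PBS retinas was the same with edgeR and DESeq2 (both without a block), limma with no block, other scalings, filters and terms, sample weights, the joint fit and each of 9 mice left out (lowest 0, highest 0). With mouse as a fixed factor, a replicate block, it was 2 in the 6 paired mice and 5 with all 15 retinas, which added Mlana, Gsto1 and Rn7sk, an alternative chosen after seeing the data. Mice with a TNF eye only are each fitted by their own mouse term there, so they add no comparison of TNF with PBS. The higher count is therefore no added support from those mice. Without a replicate block the count was 0, with 787 at an unadjusted p under 0.05. The number at an unadjusted p under 0.05, 887, became 1399 without a filter on low counts, which tests more genes, 512 in the joint fit and 550 with the pigment and cornea lists as terms. It ran from 624 without mouse 59732 to 1722 without mouse 59896. The cause of these differences was not tested. The sex count of 2651 was 1709 without mouse 59895 and ran from 1682 without mouse 59894 to 3227 without mouse 59732. Counts of 0 for TNF by sex and for day 35 against the other days were the same under each alternative run.

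Of the 19 genes named for their test or size, none changed sign in 469 values. Edn2 ran from 1.00 to 1.55, Cd44 from 0.28 to 0.36, and Asprv1 from −1.23 to −0.59. Others moved far more: Krt4 ran from −3.05 to −0.43, Krt5 from −2.91 to −0.36, Krt13 from −2.86 to −0.50 and Aldh3a1 from −2.14 to −0.05, and the ends nearest 0 come from the alternatives built on the cornea list, which holds Krt5 and Aldh3a1. The total count differed by −1822538 between groups and by −1995089 between the paired eyes of 6 mice (replicate block). Of the other 138 named genes, 190 of 3438 values changed sign. List medians ran from 0.20 to 0.34 for the pan-reactive genes, from 0.21 to 0.43 for Müller gliosis and from −0.07 to −0.0078 for RGC identity. The medians kept their sign under every alternative in the RGC identity, horizontal cell, rod, pan-reactive, A1, Müller gliosis, complement, TNF receptor, interferon, both MHC, endothelial, pericyte, pigment epithelium, cornea and erythrocyte lists, and changed sign under at least 1 in the others. Sequencing depth was not varied.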
